A study of Homo sapiens with 8 samples.

Results

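Printed M14A cells were compared with the parental HepaRG line in planar culture, which asks how far an engineered and bioprinted hepatic cell stood from the line it was made from. The comparison used 5 of the study's 8 libraries, 2 of printed M14A and 3 of HepaRG. It covered every gene with a level of 1 FPKM or more (sequenced fragments per kilobase of a gene, adjusted for the size of the library) in at least 2 of these 5 libraries, which were 13802 of the 58735 genes in the table, 11131 of them protein-coding. HepaRG is a human hepatic progenitor line, wild type by its label, and was grown on plastic (called HepaRG plate in the plots). M14A is a HepaRG derivative with the genotype label FoxM1/HNF4A transfected. The printed cells were suspended in the bioink named GP, printed, and taken 4 h later by freezing in liquid nitrogen and grinding, whereas planar cells were detached and pelleted. The 3 remaining libraries, M14A in planar culture (M14A plate), served as a reference point between both ends and entered no test. Because printed M14A differed from HepaRG in genotype, in printing and in collection at once, these cannot be told apart within the comparison. No label says that replicates were separate cultures, so the p-values rest on a spread between libraries that may be purely technical.

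HNF4A is a nuclear receptor that keeps hepatocyte genes for secreted plasma proteins, lipid transport and metabolism active, and it restrains proliferation. FOXM1 is a forkhead factor that drives genes of the late cell cycle. Hepatocytes also answer cytokines through NF-kB with chemokines and acute phase proteins, and oxidants through NRF2 with genes of glutathione synthesis. HepaRG cells in the undifferentiated state hold biliary and hepatic traits together.

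The 5 libraries held 15632154 to 19148262 reads. The HepaRG libraries were close to each other (chi-square of their recovered reads 2.69 to 4.02 per degree of freedom in the 3 pairs), and the printed pair was less so (25.3). Transcripts of the mitochondrial genome, ribosomal RNA included, took 6.91 to 7.25% of reads in HepaRG, 8.21 to 9.72% in M14A plate, and 13.3% and 16.4% in printed M14A. The printed libraries also listed fewer genes with reads (23444 and 24212 against 26534 to 27763) and gave more of their reads to their 10 highest genes (14.8% and 17.1% against 8.07 to 8.46%). The summed level of 8 hepatocyte markers was 154 to 171 FPKM in HepaRG, 603 to 913 in M14A plate and 961 to 1108 in printed M14A, and none of them was at 0 in any group. The 8 markers include HNF4A, a gene of the genotype label, and SERPINA1, which made up a large part of the sum in printed M14A.

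The 2 genes of the genotype label are given first. HNF4A read 5.67, 6.24 and 6.50 FPKM in the HepaRG libraries, 37.9, 43.1 and 41.7 in M14A plate, and 17.1 and 13.6 in printed M14A. Both printed libraries lay above every HepaRG library and below every M14A plate library. The net rise was 1.19 on the log2(FPKM + 1) scale (SE 0.12, adjusted p = 2.8e-04). FOXM1 read 12.9, 13.7 and 14.9 FPKM in HepaRG, 13.0, 10.4 and 8.92 in M14A plate, and 10.1 in each printed library. Its net difference was small, -0.42 (SE 0.09, adjusted p = 0.0056), and with all 8 libraries in 1 fit the adjusted p was 0.056. Reads of introduced and of resident copies are counted together in these levels.

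Promoters of 4 genes that carry contrasting results are shown first: CXCL1 and LCN2, a chemokine and an iron-binding protein that rose most among NF-kB and acute phase genes, NFKBIA, the NF-kB inhibitor whose level in printed cells did not differ from HepaRG beyond the spread, and GCLM, a subunit of the enzyme of glutathione synthesis that fell. Each runs 5′ to 3′ over the 250 bases before the transcription start, from RefSeq on GRCh38.p14. CXCL1 is chr4:73869143-73869392 on the plus strand, LCN2 chr9:128149203-128149452 on the plus strand, NFKBIA chr14:35404750-35404999 on the minus strand and GCLM chr1:93909431-93909680 on the minus strand. Capitals mark matches, on either strand, to an NF-kB type motif (GGG, any 5 bases, CC) in the first 3 and to TGACNNNGC, the core of the antioxidant response element, in GCLM.
CXCL1: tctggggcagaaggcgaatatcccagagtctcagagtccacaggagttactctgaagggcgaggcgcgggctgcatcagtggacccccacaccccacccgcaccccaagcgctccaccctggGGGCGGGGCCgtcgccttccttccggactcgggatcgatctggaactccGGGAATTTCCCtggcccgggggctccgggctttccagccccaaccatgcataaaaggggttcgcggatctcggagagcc
LCN2: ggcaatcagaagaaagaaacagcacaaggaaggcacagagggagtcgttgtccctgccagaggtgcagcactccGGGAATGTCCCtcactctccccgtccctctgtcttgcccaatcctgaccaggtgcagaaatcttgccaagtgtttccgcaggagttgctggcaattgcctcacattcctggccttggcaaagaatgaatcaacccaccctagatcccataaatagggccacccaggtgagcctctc
NFKBIA: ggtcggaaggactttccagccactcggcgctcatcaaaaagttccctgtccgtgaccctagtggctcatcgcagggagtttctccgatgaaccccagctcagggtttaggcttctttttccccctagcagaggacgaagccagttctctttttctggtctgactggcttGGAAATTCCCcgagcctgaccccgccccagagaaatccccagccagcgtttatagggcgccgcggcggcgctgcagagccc
GCLM: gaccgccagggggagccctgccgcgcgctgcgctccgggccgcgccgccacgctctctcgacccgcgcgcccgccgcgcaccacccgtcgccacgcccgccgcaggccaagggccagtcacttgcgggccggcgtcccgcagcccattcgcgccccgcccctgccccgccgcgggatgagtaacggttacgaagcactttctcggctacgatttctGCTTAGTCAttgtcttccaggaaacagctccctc
CXCL1 held 3 matches, of which a pair overlapped, LCN2 held 2 overlapping ones, and NFKBIA and GCLM held 1 each. Over the table's full promoters, 250 bases before to 50 after the start, the NF-kB type motif occurred in 14 of the 16 NF-kB and acute phase genes with a promoter entry (87.5%), beside 58.7% of all 35116 promoters. TGACNNNGC occurred in 4 of 12 NRF2 targets (33.3%: GCLM, ME1, PGD and TXNRD1), beside 13.3% of all promoters. The list shares count a gene if any of its promoters matched, whereas the shares over all count each promoter singly. A gene with several promoters had more chances to match, so these shares are not like for like. CXCL1 and NFKBIA both hold the NF-kB type match, and their levels in printed cells differed widely, as given below.

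Across the 13802 genes, printed M14A and HepaRG stood apart by several times the spread between replicates. The root-mean-square difference in log2(FPKM + 1) was 0.985 to 1.06 over the 6 pairs of a printed and a HepaRG library, against 0.212 to 0.222 within HepaRG and 0.354 between the printed libraries. M14A plate was nearer to both ends than they were to each other, at 0.726 to 0.899 from HepaRG and 0.642 to 0.766 from printed M14A. Pairs of M14A plate libraries themselves spanned 0.234 to 0.580, with library 1 apart from the others. Pearson's r across genes, which are not independent, was 0.833 to 0.846 for printed against HepaRG libraries and 0.990 to 0.991 within HepaRG.

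**Figure D1:**
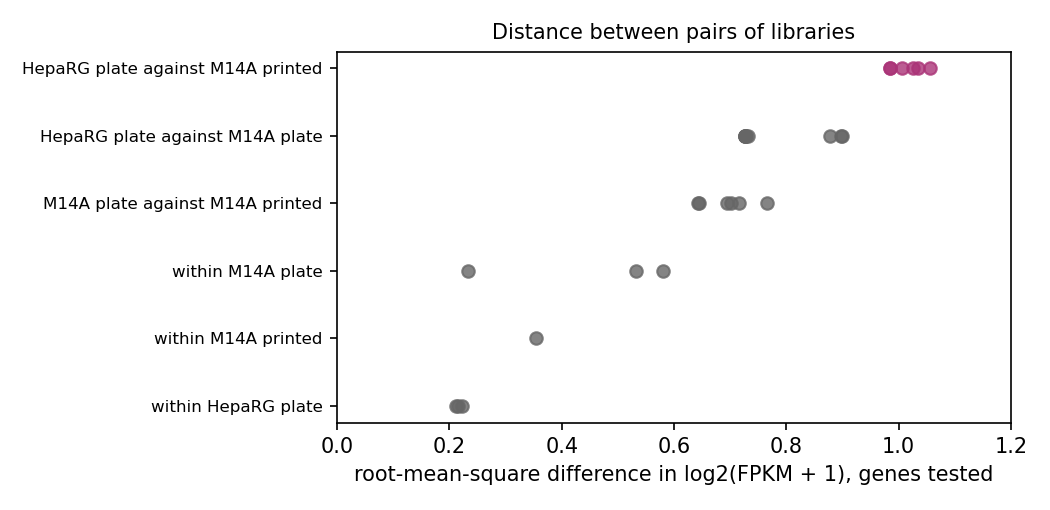
Root-mean-square difference in log2(FPKM + 1) over 13802 genes (horizontal axis) for each pair of libraries (points), by kind of pair (rows). The 6 pairs of HepaRG and printed M14A lie at 0.985 to 1.06, to the right of every other kind of pair.

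Calls were made by limma where the p adjusted after Benjamini and Hochberg was below 0.05. Most genes were: 4808 were higher in printed M14A (34.8%) and 5157 were lower (37.4%), 72.2% together, and 10281 (74.5%) had an unadjusted p under 0.05. The 2 groups did not overlap at 81.5% of the genes tested. Calls of at least 2-fold were fewer, 1977 higher (14.3%) and 1613 lower (11.7%), 26% together. List counts at 2-fold are read here against these shares, and list counts at any fold against 34.8% and 37.4%. The absolute difference had a median of 0.60. It reached 4-fold in 563 genes, 380 higher and 183 lower, and 16-fold in 59, 47 higher and 12 lower, so rises outnumbered falls among the largest differences on this scale.

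That balance depends on the scaling. The deposited values set the median gene of the libraries nearly equal (median log2 difference -0.05), while the summed FPKM was 254141 to 266419 in HepaRG and 514152 and 499995 in the printed libraries. Rescaling to equal FPKM totals moved the median to -0.79 and gave 1741 higher and 9775 lower (15.1% of calls higher, against 48.2% as deposited), with 585 and 5355 at 2-fold. Equal totals without mitochondrial genes moved it to -0.60, with 2346 higher and 8640 lower (21.4% higher). Equal read totals, added after the data were seen, moved it to -0.45, with 2915 higher and 7729 lower (27.4% higher). All differences below are on the deposited scale, relative to the bulk of genes in each library.

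The largest rises joined proteins of inflammation to products of the liver. LCN2 read 0.133, 0.245 and 0.448 FPKM in HepaRG, 212, 303 and 300 in M14A plate, and 989 and 919 in printed M14A, a net rise of 9.55 (SE 0.12, adjusted p = 1.5e-06). CXCL1, a neutrophil chemokine, read 2.34, 2.82 and 2.40 in HepaRG and 389 and 343 in printed M14A (6.71), and CXCL8 read 1.91, 1.55 and 1.51 against 193 and 198 (6.21). SAA1, an acute phase apolipoprotein, was already at 39.1 to 41.9 in HepaRG and read 2686 and 2433 in printed M14A (5.96). For each of these the groups lay far apart and the M14A plate libraries lay between them.

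Others among the 10 largest rises were PDZK1IP1, a small membrane protein (6.77), TFF3, a secreted trefoil peptide (6.26), CCL20, a lymphocyte chemokine (6.09), APCS, the serum amyloid P component (6.07), FGB, the fibrinogen beta chain (6.02), and AQP9, a hepatocyte channel for glycerol and water (5.76). Their adjusted p values were 1.6e-06 to 2.4e-06. CCL20, like LCN2, passed the filter only through printed M14A, so the direction of its rise was fixed by the filter. Any other rise from below 1 FPKM in HepaRG carries the same limit. AQP9 and APCS were nearly as high in M14A plate, at 80.1 to 120 and 82.1 to 109 FPKM, as in printed M14A, at 116 and 137 and at 124 and 114.

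The largest falls were losses almost to 0. NQO1, a quinone reductase and a standard NRF2 target, read 187, 184 and 190 FPKM in HepaRG, 0.462, 0.236 and 0.125 in M14A plate, and 0.253 and 0.398 in printed M14A, a difference of -7.15 (SE 0.08, adjusted p = 1.5e-06). MAGEC2, a cancer-testis antigen, read 65.7, 66.6 and 65.2 against 0.0751 and 0.217 in printed M14A (-5.87). COL5A1, a fibrillar collagen chain, read 23.8, 26.0 and 25.3 against 0.0401 and 0.0165 (-4.66). MMP2, a matrix metalloproteinase, read 19.7 to 20 against 0.0909 and 0.050 (-4.28). The printed values of MAGEC2, COL5A1 and MMP2 rest on 9, 9 and 10 reads over both libraries. NQO1, MAGEC2, COL5A1 and MMP2 passed the filter only through HepaRG, so the direction of their falls was fixed by the filter. Any other fall to below 1 FPKM in both printed libraries carries the same limit. KRT81, a hair keratin (-4.82), APCDD1L (-4.50), TMPRSS15, an intestinal protease (-4.49), and FKBP10, a collagen chaperone (-4.14), fell as far, and in all of them M14A plate was as low as printed M14A or nearly so.

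**Figure D2:**
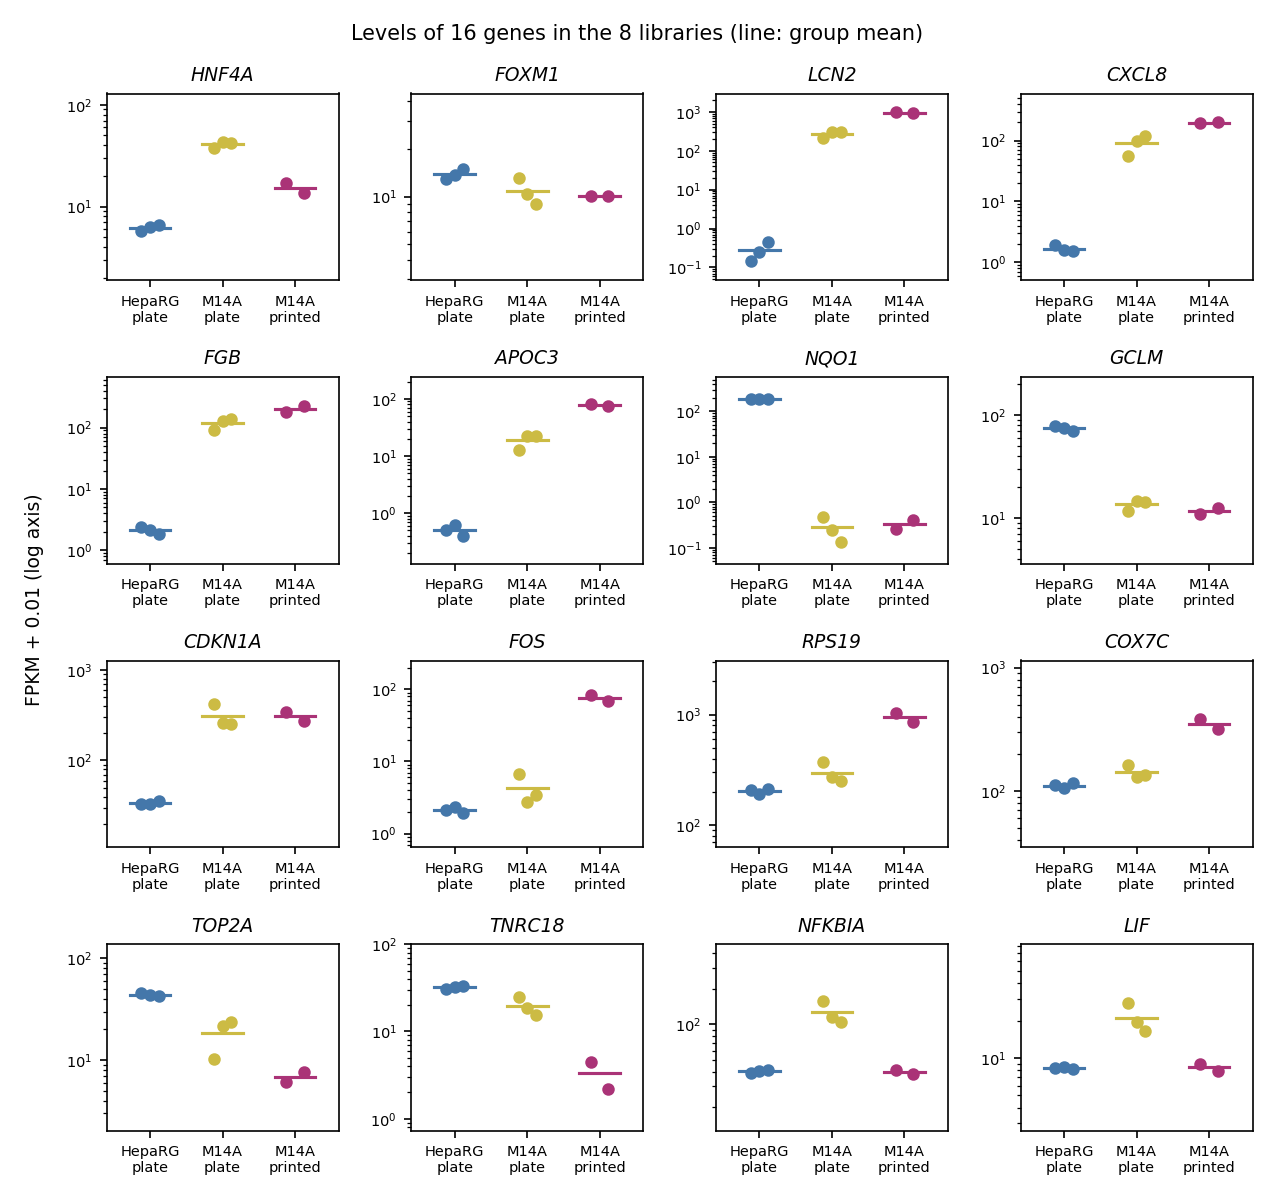
Level of 16 genes in each of the 8 libraries (points) with the group mean (line), as FPKM + 0.01 on a log axis, 1 panel a gene. LCN2, CXCL8, FGB and APOC3 are higher and NQO1 and GCLM lower in both kinds of M14A, FOS, RPS19 and COX7C stand out in the printed libraries, and NFKBIA and LIF in printed M14A are at the level of HepaRG.

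To read the comparison by function, 30 lists with 440 genes were used, of which 361 genes were tested. The lists were read by their counts and medians beside those of all genes tested, without a test of the list. Over all genes 34.8% were called higher and 37.4% lower, 14.3% and 11.7% at 2-fold, with a median of -0.05. IL1B, SAA2, CCL20, LCN2, APOA1, APOC3, CFI, CFB, F5, C4BPA, F2, CYP3A5, UGT2B7, ABCB4, CLDN4, KRT7, NR1I2, COL5A2, ENO2, MX1, NR4A1, NR4A2, FOSB, MT1F, HIST1H1E, HIST1H4C, HIST2H2AC, MARCO and LAPTM5 had fewer than 2 HepaRG libraries at 1 FPKM or more. They passed the filter only through printed M14A, so their rises were fixed by it. The filter acts on falls in the same way. NQO1, CD24, PROC, CEBPA, COL5A1 and SPARC were below 1 FPKM in both printed libraries. They passed only through HepaRG, so their falls were fixed by the filter and add little to the counts of lower genes. PPARA and CHAC1 had only 1 printed library at 1 FPKM or more, and PDGFRB had a printed mean below 1 FPKM. In bulk libraries, fewer cells of a type and less RNA per cell cannot be told apart.

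Secreted proteins of the liver were higher in printed M14A. All 12 tested hepatocyte secreted proteins of 17 listed were called higher, each by at least 2-fold, with a median of 2.91. A gene at low level in HepaRG passed the filter only where printed M14A was high, so this count leaves out the 5 members that did not reach the filter. Under equal FPKM totals 11 were higher, 9 of them by 2-fold, with a median of 2.16. ALB, the albumin gene, read 2.42, 2.01 and 2.13 FPKM in HepaRG, 29.1, 23.1 and 26.8 in M14A plate, and 79.1 and 83.3 in printed M14A (4.69, SE 0.09, adjusted p = 1.8e-06). APOC3, an apolipoprotein of triglyceride-rich particles, read 0.491, 0.603 and 0.386, then 12.8, 22.6 and 22.6, then 80.4 and 74.8 (5.72). SERPINA1, the alpha-1 antitrypsin gene, read 8.75, 9.49 and 10.4 in HepaRG and 480 and 438 in printed M14A (5.45). For albumin and APOC3 the levels were ordered HepaRG, M14A plate, printed M14A, with no overlap between groups.

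Complement and coagulation genes moved alike but less. Of 12 tested of 16 listed, 10 were higher, 9 of them by at least 2-fold, 1 was lower, and the median was 1.28. CFI, CFB, F5, C4BPA and F2 among the higher ones passed the filter only through printed M14A. Under equal FPKM totals 8 were higher, 5 of them by 2-fold, and 2 lower, with a median of 0.72. F2, prothrombin, read 0.646, 0.307 and 0.487 against 14.9 and 10.4 (3.19), and C1R, a complement protease, 6.52, 6.62 and 6.95 against 47.1 and 47.9 (2.65). PROC, the anticoagulant protein C, was the member called lower on the deposited scale, from 3.98, 3.82 and 4.27 to 0.150 and 0.0989 (-2.16, adjusted p = 1.9e-05). PROC passed the filter only through HepaRG.

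Liver transcription factors other than HNF4A mostly went the opposite way from the secreted proteins. Of 12 tested, 10 were lower and 2 higher, with 5 and 1 at 2-fold and a median of -0.82. The 2-fold falls numbered 3 without printed library 2. PPARA, the fatty acid sensor, read 4.66, 5.68 and 4.83 in HepaRG and 0.955 and 1.19 in printed M14A (-1.55, SE 0.11, adjusted p = 8.5e-05). CEBPA, a factor of hepatocyte differentiation, read 2.64, 3.12 and 3.50 against 0.966 and 0.281 (-1.36, adjusted p = 0.0013), and its exons overlap another gene over 43.4% of their length. CEBPA passed the filter only through HepaRG. RXRA, the shared partner of many nuclear receptors, read 11.0, 11.9 and 12.0 against 5.53 and 3.01 (-1.30, adjusted p = 0.0017). NR1I2, the pregnane X receptor, rose (1.28). Only 1 factor was called higher when HepaRG library 1, 2 or 3 was left out.

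Metabolic liver genes were mixed. Of 8 tested drug metabolism enzymes of 17 listed, 2 were higher and 3 lower, not far from the shares of all genes (34.8% and 37.4%). Under equal FPKM totals 2 were higher and 6 lower. UGT2B7, a glucuronosyltransferase, read 0.141, 0.116 and 0 FPKM in HepaRG and 10.3 and 9.04 in printed M14A (3.30), and CYP3A5, a cytochrome P450, 0.888, 1.03 and 0.728 against 2.41 and 3.35 (1.04). Both passed the filter only through printed M14A. GSTA1, a glutathione transferase, read 27.8, 32.4 and 27.5 against 23.5 and 16.9 (-0.52, adjusted p = 0.023), and this call was lost without HepaRG library 1 or 2 or printed library 2, with differences of -0.56, -0.45 and -0.30. The drug enzymes called lower numbered 1 without HepaRG library 1 or 2. Among 11 genes that make or move bile acids 4 were tested and 7 were not. Of the 4, 3 were higher, of which ABCB4 passed the filter only through printed M14A. Another was CYP27A1, which starts the acidic pathway, at 17.2, 16.2 and 18.3 against 53.7 and 44.9 (1.46). Of 7 tested genes of the urea cycle and glutamine handling, 3 were higher and 2 lower. ASS1, argininosuccinate synthase, read 90.2, 90.2 and 97.5 against 194 and 187 (1.04), and CPS1, the first enzyme of the cycle, was lower (-0.75, adjusted p = 0.0012). The urea cycle median was -0.08 and changed sign without printed library 2, at 0.16.

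Biliary and progenitor markers were mostly lower, 5 of 7 tested, 3 of them by at least 2-fold. CD24, a progenitor surface protein, read 19.6, 18.0 and 18.8 FPKM in HepaRG and 0.290 and 0.538 in printed M14A (-3.81, SE 0.10, adjusted p = 5.4e-06). CD24 passed the filter only through HepaRG. SPP1, osteopontin, read 53, 52.8 and 51.9 against 12.6 and 13.9 (-1.91). KRT7, a biliary keratin, was an exception at 0.467, 0.468 and 0.455 against 6.66 and 4.82 (2.19). Over 8 fixed biliary and progenitor markers the summed level was 117 to 121 FPKM in HepaRG, 27.2 to 62.6 in M14A plate and 48.5 to 51.9 in printed M14A, and EPCAM was at 0 in both kinds of M14A.

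NF-kB and acute phase genes were mostly higher. Of 17 tested genes 14 were higher, 13 of them by at least 2-fold, 1 was lower and the median was 2.46. Besides LCN2, CXCL1 and CXCL8, the genes TNFAIP3, ICAM1 and SOD2 rose. TNFAIP3, a ubiquitin-editing brake on NF-kB, read 5.72, 5.74 and 5.60 in HepaRG, 73.7, 61.4 and 58.6 in M14A plate and 30.8 and 37.4 in printed M14A (2.39, SE 0.10, adjusted p = 2.0e-05). ICAM1, a leukocyte adhesion molecule, read 15.2, 15.4 and 15.6 against 87.3 and 90.9 (2.46). NFKBIA, the other inhibitor of the pathway, read 38.9, 40.2 and 41.4 in HepaRG and 41.6 and 38.1 in printed M14A, a difference of -0.01 with a 95% interval of -0.20 to 0.18. M14A plate held 159, 115 and 105 FPKM of it. So the 2 inhibitors were both highest in M14A plate, and in printed M14A TNFAIP3 stayed above the HepaRG level while NFKBIA overlapped it. Under equal FPKM totals NFKBIA was lower in printed M14A (-0.95) and TNFAIP3 remained higher.

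Interferon-stimulated genes rose in part. Of 12 tested, 9 were higher, 5 by at least 2-fold, and the median was 0.84. Under equal FPKM totals 5 were higher and 3 lower, with a median of 0.21. IFI27, a small membrane protein, read 4.15, 3.65 and 3.85 FPKM in HepaRG and 132 and 125 in printed M14A (4.73), IFI6 read 71.0, 65.6 and 65.1 against 672 and 564 (3.18), and ISG15, a ubiquitin-like modifier, 33.6, 35.5 and 42.1 against 222 and 174 (2.38). The transcription factor IRF1 (-0.14, adjusted p = 0.18) did not pass the test.

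Targets of p53 were higher almost throughout. Of 17 tested, 16 were higher, 14 by at least 2-fold, with a median of 1.78. Under equal FPKM totals 13 were higher, 8 of them by 2-fold, and 1 lower, with a median of 0.91. CDKN1A, the cell cycle inhibitor p21, read 33.3, 33.5 and 35.3 in HepaRG, 421, 259 and 254 in M14A plate and 338 and 273 in printed M14A (3.12, SE 0.11, adjusted p = 1.1e-05). GDF15, a stress cytokine, read 38.8, 33.3 and 33.3 against 598 and 421 (3.80). FDXR, ferredoxin reductase, read 6.83, 6.08 and 7.13 against 113 and 79.5 (3.64). MDM2, the ligase of p53, and BAX, which permeabilises mitochondria, rose by 2.21 and 2.62, and PMAIP1 did not pass the test (0.10).

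NRF2 targets were lower as a group. Of 16 tested, 12 were lower, 8 by at least 2-fold, 1 was higher and the median was -0.98. After NQO1, SLC7A11, the cystine transporter, read 29.5, 29 and 26.4 FPKM in HepaRG and 1.53 and 1.92 in printed M14A (-3.43, SE 0.10, adjusted p = 7.3e-06). GCLM, whose promoter is printed above, read 77.7, 75.1 and 70.3 against 10.8 and 12.3 (-2.59, adjusted p = 1.2e-05). GCLC, the catalytic subunit of the same enzyme, was lower by a similar amount (-1.94). PGD (-0.14) and AKR1C3 (0.21) did not pass the test. In this list printed M14A and M14A plate were at nearly the same distance from HepaRG, with medians of -0.98 and -0.96. Metallothioneins, which bind zinc and copper, were higher: MT1E, MT2A, MT1X and MT1F each rose by 2.33 to 3.02, MT2A from 267, 237 and 261 to 1999 and 1842 FPKM, and the zinc exporter SLC30A1 was lower (-0.71).

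**Figure D3:**
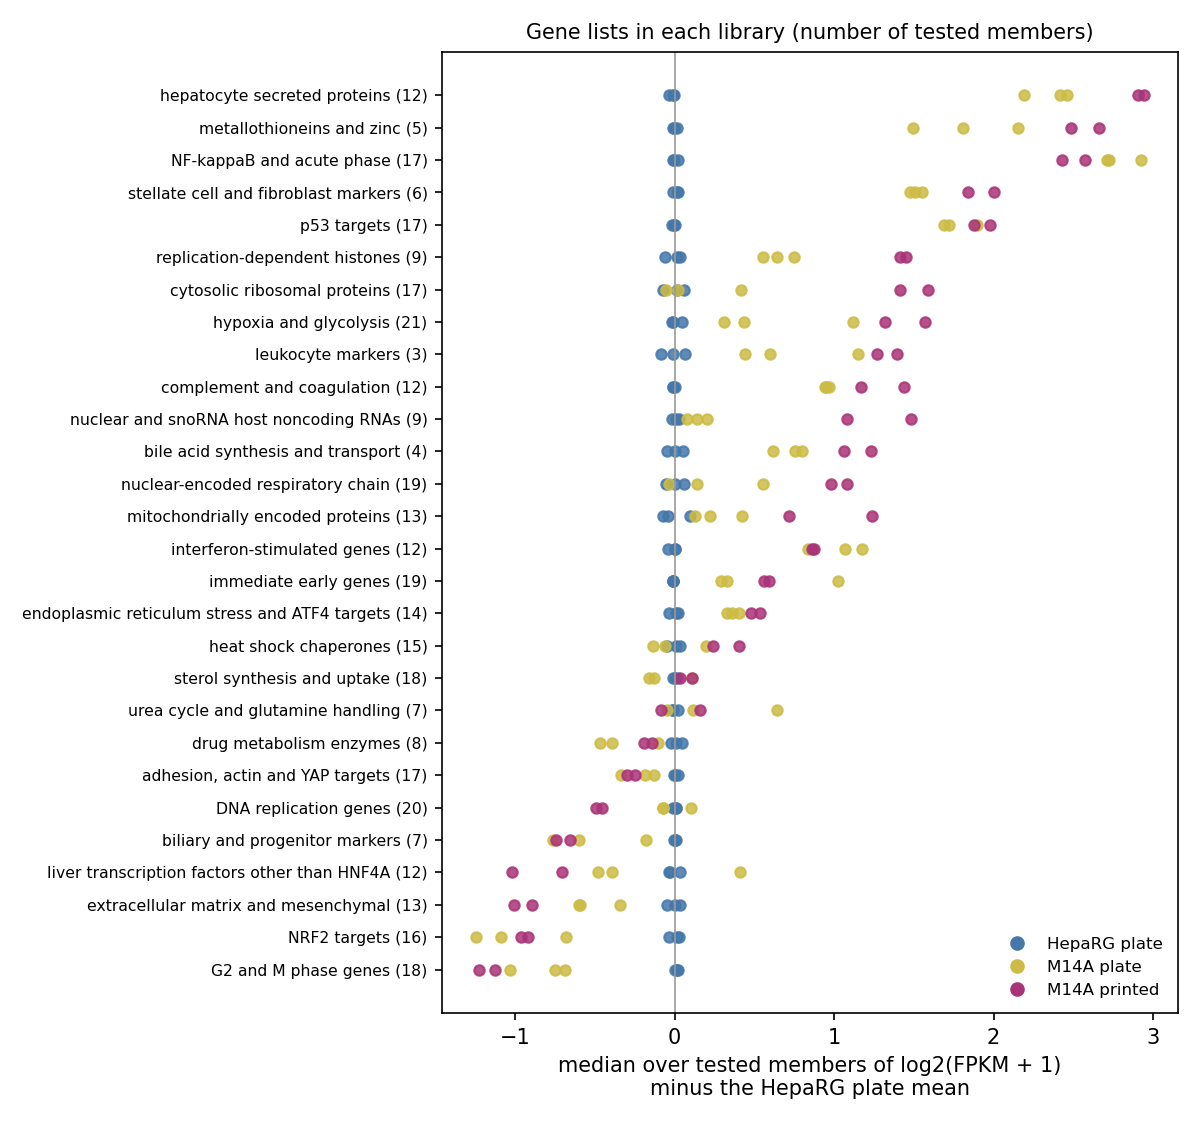
Median over the tested members of each gene list (rows, number of members in brackets) of log2(FPKM + 1) minus the HepaRG mean, for each library (points). Secreted liver proteins, NF-kB and p53 targets are high and NRF2 targets low in both kinds of M14A, while ribosomal and respiratory chain genes are highest in the printed libraries. Under other scalings the printed medians of the immediate early, heat shock, endoplasmic reticulum, sterol and mitochondrially encoded lists change sign.

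Immediate early genes, which are transcribed within minutes of a stimulus, did not act as 1 group. Of 19 tested, 11 were higher and 4 lower, with 5 and 2 at 2-fold. The median was 0.61, and -0.21 under equal FPKM totals. FOS read 2.10, 2.32 and 1.95 in HepaRG, 6.76, 2.75 and 3.47 in M14A plate and 83.6 and 68.5 in printed M14A (4.62, SE 0.11, adjusted p = 4.0e-06). FOSB read 0.134, 0.141 and 0.12, then 0.192, 0.166 and 0.0641, then 9.62 and 7.06 (3.03). For both, the 2 printed libraries stood far above the other 6. ATF3 rose by 2.30 and was intermediate in M14A plate. JUNB, another member of the AP-1 family, was lower, at 115, 109 and 121 against 57.6 and 36.4 (-1.31, adjusted p = 0.0012), and KLF2, a zinc finger factor induced by flow, was lower as well (-1.59).

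The lists of heat shock chaperones and of endoplasmic reticulum stress and ATF4 each held genes of both directions. Heat shock chaperones had 9 of 15 higher and 3 lower, but 1 in each direction at 2-fold. With all 8 libraries in 1 fit 1 was higher and 2 lower. Their median of 0.31 turned to -0.63 under equal FPKM totals and to -0.68 under quantile normalization. HSPE1, the mitochondrial co-chaperonin, read 23.4, 20.1 and 20.7 against 48.3 and 46.2 (1.11), and BAG3, a co-chaperone of HSP70, 69.7, 66.3 and 71.9 against 36.7 and 28.3 (-1.08). Among 14 tested genes of endoplasmic reticulum stress and ATF4, 9 were higher and 3 lower (median 0.51, and -0.34 under equal FPKM totals). The chaperones and folding enzymes PDIA4 and CALR were higher by 1.52 and 1.41, while the ATF4 targets CHAC1 and TRIB3 were lower by -2.02 and -1.73. CHAC1, which degrades glutathione, read 7.82, 5.81 and 6.66 against 1.2 and 0.659. Sterol synthesis genes had 7 of 18 higher, none by 2-fold, and 6 lower, 4 of them by 2-fold (2 without printed library 1). HMGCS1, an enzyme early in the pathway, read 35.4, 35.8 and 34.3 against 9.42 and 12.9 (-1.59). Counted at any fold, the sterol genes were close to the shares of all genes, 34.8% higher and 37.4% lower. The sterol median was 0.11 and -0.81 under equal FPKM totals.

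Hypoxia and glycolysis genes were higher in 17 of 21, 12 of them by at least 2-fold, with a median of 1.45. Under equal FPKM totals 11 were higher and 6 lower, 5 and 4 of them by 2-fold, with a median of 0.64, and under quantile normalization the median was 0.59. CA9, a carbonic anhydrase induced by low oxygen, read 3.66, 4.27 and 4.38 FPKM in HepaRG, 72.8, 41.5 and 39.7 in M14A plate and 225 and 156 in printed M14A (5.21, SE 0.17, adjusted p = 9.1e-06). ADM, a vasodilator peptide, read 10.3, 8.93 and 8.57 against 56.8 and 52.6 (2.44), and BNIP3, a mitophagy receptor, rose by 2.37. The 4 members called lower were VEGFA (-0.87), HK2 (-0.86), ALDOA (-0.45) and SLC2A1 (-0.26), the angiogenic factor, 2 glycolytic enzymes and the glucose transporter. CA9 exons overlap another gene over 38.5% of their length.

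Genes of the respiratory chain and the ribosome formed a block that was raised in printed M14A and close to HepaRG in M14A plate. All 19 nuclear-encoded respiratory chain genes were higher, 10 by at least 2-fold (median 1.08, and 0.21 for M14A plate minus HepaRG). Under equal FPKM totals the median was 0.14, with 5 higher, 1 lower and none at 2-fold, and under quantile normalization it was 0.34, with 13 higher, 1 lower and 1 at 2-fold. COX7C, a cytochrome oxidase subunit, read 111, 105 and 116 in HepaRG, 163, 129 and 135 in M14A plate and 381 and 319 in printed M14A (1.65, SE 0.10, adjusted p = 5.4e-05). Of 17 cytosolic ribosomal protein genes 16 were higher, all 16 by at least 2-fold (median 1.5, and 0.12 for M14A plate minus HepaRG). RPS19 read 206, 189 and 210, then 372, 271 and 251, then 1032 and 863 (2.22), and RPS23 did not pass the test (0.06). Under quantile normalization the ribosomal median was 0.08 with no 2-fold call, and under equal FPKM totals it was 0.53 with 1. Of the 13 mitochondrially encoded proteins 10 were higher, 6 by at least 2-fold (median 0.98, and -0.49 under quantile normalization). MT-CO2 read 9616, 9022 and 10146 against 30919 and 32254 (1.72).

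Histone genes and part of the noncoding RNAs listed were higher too. All 9 tested replication-dependent histone genes were higher, 7 by at least 2-fold (median 1.53). Under equal FPKM totals 8 were higher, 3 of them by 2-fold, and 1 lower (median 0.65). HIST1H1C, a linker histone, read 40.4, 38.7 and 37.2 against 212 and 174 (2.28). Of 9 tested nuclear and snoRNA host RNAs 5 were higher, each by at least 2-fold, and 4 did not pass the test. The hosts of small nucleolar RNAs SNHG5, GAS5 and ZFAS1 rose by 2.13, 1.97 and 1.88, SNHG5 from 55.8, 52.8 and 58.1 to 258 and 236, while the hosts SNHG12 (0.02) and SNHG1 (0.05) did not pass. The nuclear RNAs MALAT1 (-0.88, adjusted p = 0.080) and NEAT1 (-0.37, adjusted p = 0.12) did not pass the test.

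Gene length moved with the difference over the whole table. In quintiles of genes ordered by length, the median difference of printed M14A from HepaRG was 0.29, 0.33, 0.01, -0.20 and -0.45 from the shortest to the longest, and both printed libraries gave this order of signs except in the middle quintile, near 0. At 2-fold, 27.6% of the shortest quintile were called higher, against 4.06% of the longest. By transcript GC content the medians were -0.24, -0.08, -0.00, 0.12 and 0.00, and in the highest quintile the printed libraries parted, at 0.21 and -0.20. With both trends removed the ribosomal median was 1.16 with 14 genes at 2-fold, that of the respiratory chain 0.86 with 7, that of the histones 1.01 with 5, and that of the mitochondrially encoded proteins 0.52 with 3 and 1 gene lower. Annotated snoRNA genes went the other way despite their small size (73 tested, median -1.0, 35 lower by at least 2-fold). However, 1 read was worth 0.0435 to 0.0747 FPKM in a 1 kb gene and more in shorter ones. Genes this short can pass the filter on a few reads, and most libraries of the filter are HepaRG. Their falls can thus lie near the floor of counting and be set in part by the filter. The part of gene length, of the mitochondrial read share and of the collection method in these list results was not tested.

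**Figure D4:**
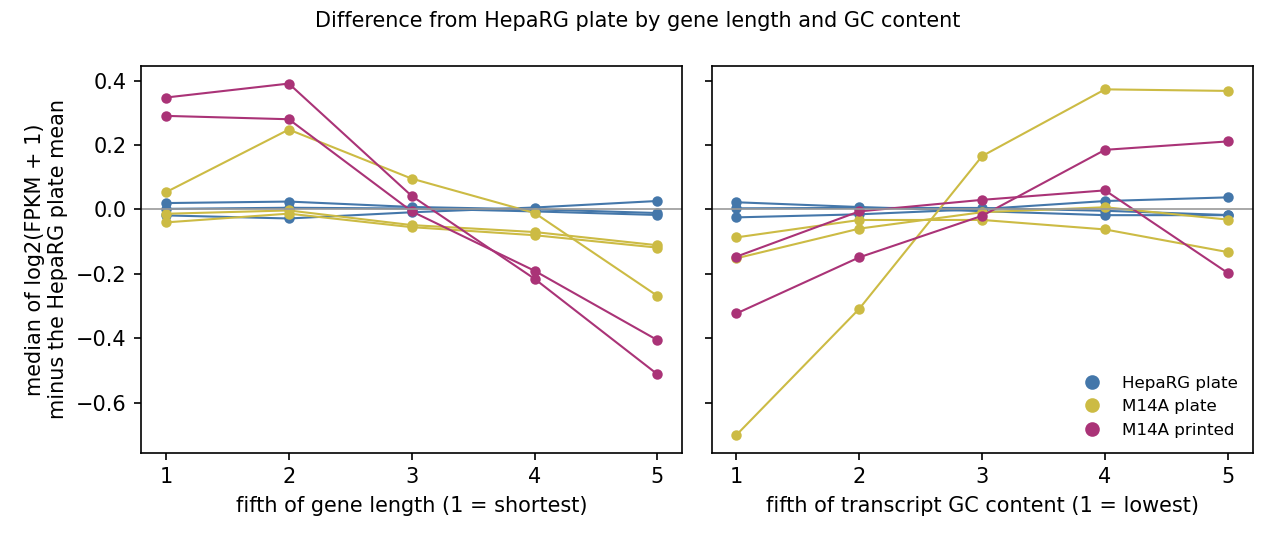
Median of log2(FPKM + 1) minus the HepaRG mean over genes in quintiles of gene length (left) and of transcript GC content (right), 1 line a library. Both printed libraries pass from above 0.25 in the shortest quintile to below -0.40 in the longest, and they part in the highest quintile of GC content.

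Genes of mitosis were lower in printed M14A, and genes of DNA replication went both ways on the deposited scale. Of 18 tested G2 and M phase genes 17 were lower, 10 by at least 2-fold, with a median of -1.17, and AURKB did not pass the test (0.16). TOP2A, the mitotic topoisomerase, read 46.0, 44.1 and 42.2 FPKM in HepaRG, 10.2, 21.5 and 23.6 in M14A plate and 6.11 and 7.66 in printed M14A (-2.52, SE 0.11, adjusted p = 2.1e-05). CENPF, a kinetochore protein, read 15.3, 14.5 and 15.4 against 1.63 and 2.31 (-2.44), and MKI67 23.9, 27.2 and 26.6 against 2.94 and 5.67 (-2.39). CCNB1, cyclin B1, was lower by less (-0.54, adjusted p = 0.0012). Of 20 DNA replication genes 12 were lower, 2 of them by at least 2-fold, and 6 were higher (median -0.49). Under equal FPKM totals 19 were lower, 13 of them by 2-fold, and 0 higher (median -1.36). Under equal read totals 14 were lower and 1 higher, and under quantile normalization 15 were lower and 3 higher. MCM5, a subunit of the replicative helicase, read 21.4, 21.8 and 22.2 against 7.13 and 6.78 (-1.52), and GINS1 was lower by a like amount (-1.44). TYMS, thymidylate synthase, read 22.2, 19.9 and 22.1 against 39.5 and 36.1 (0.79), and it was the highest riser of the list but stood at -0.14 under equal FPKM totals.

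Extracellular matrix and mesenchymal genes were mostly lower, 9 of 13, 6 of them by at least 2-fold, with a median of -0.90. With the trends of length and GC content removed the median was -0.51, with 3 lower by 2-fold. SPARC, a collagen-binding glycoprotein, read 6.02, 5.70 and 5.94 against 0.0773 and 0.0766 (-2.68, SE 0.08, adjusted p = 7.3e-06). SPARC and COL5A1 passed the filter only through HepaRG. TGFBI, a matrix protein induced by TGF-beta, was higher, at 35.2, 34.7 and 36.3 against 102 and 108 (1.54). Of 17 tested genes of adhesion, actin and YAP 10 were lower, 4 by at least 2-fold, and 4 were higher (6 lower without HepaRG library 1). THBS1, thrombospondin 1, read 42.6, 46.5 and 44.7 against 2.57 and 2.69 (-3.65), and FLNA, the actin crosslinker filamin A, 121, 132 and 131 against 20.6 and 13.3 (-2.88). The classic YAP targets split, with CYR61 at -0.28, ANKRD1 at -0.32 and CTGF at 0.55, each passing the test.

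Markers of other cell types were read beside these. Of 6 tested stellate cell and fibroblast markers 5 were higher and PDGFRB was lower (-1.35). The mean of PDGFRB in printed M14A was below 1 FPKM, so it could not pass the filter without HepaRG, which favoured a fall. DCN, the proteoglycan decorin, read 3.39, 3.09 and 2.97 FPKM against 49.8 and 50.5 (3.63), PDPN, podoplanin, 5.01, 4.87 and 4.79 against 39.1 and 44.0 (2.85), and ACTA2, smooth muscle actin, 1.45, 1.26 and 1.68 against 12.6 and 12.2 (2.45). The 8 markers summed to 51.2 to 54.4 FPKM in HepaRG, 134 to 143 in M14A plate and 206 to 212 in printed M14A. Of 7 leukocyte markers 3 were tested and were higher: CD14 (1.09), MARCO (1.33) and LAPTM5 (1.97). In HepaRG, MARCO (0.251 to 0.409 FPKM) and LAPTM5 (0.714 to 0.846) were below 1 FPKM in every library, so their direction was fixed by the filter. Their sum over all 7 was 2.51 to 3.21 FPKM in HepaRG and 12.4 to 14 in printed M14A, and PTPRC, which marks leukocytes in general, was at 0 in the printed libraries. None of 7 endothelial markers reached the filter, their sum was 1.09 to 1.27 FPKM in HepaRG and 1.91 to 2.49 in printed M14A, and CDH5 was at 0. The 7 erythroid markers summed to 0.402 to 0.727 FPKM in HepaRG and 5.30 to 5.94 in printed M14A, and 1 of them reached the filter, through printed M14A alone. The part of other cell types in the results was not tested, beyond these levels.

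M14A plate locates each net difference between its ends. Its position is the difference of M14A plate from HepaRG divided by that of printed M14A from HepaRG, on log2(FPKM + 1), so 0 is the HepaRG level and 1 the printed level. Of the 3590 genes called at 2-fold, 1622 (45.2%) lay at 0.25 to 0.75, 936 (26.1%) within 0.25 of the printed level, 885 (24.7%) within 0.25 of the HepaRG level, 101 (2.81%) further out than printed M14A and 46 (1.28%) below -0.25, on the other side of HepaRG. The median was 0.50 among rises and 0.51 among falls. Without M14A plate library 1 the genes within 0.25 of the HepaRG level numbered 1082 and those at 0.25 to 0.75 numbered 1481. This is a description with no test, since the position shares libraries with the comparison.

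At the HepaRG end, besides FOS and FOSB, TNRC18, a nuclear protein with a bromo-adjacent homology domain, read 31.1, 32.1 and 33.5 FPKM in HepaRG, 24.7, 18.4 and 15.4 in M14A plate and 4.48 and 2.19 in printed M14A (-2.99, SE 0.22, adjusted p = 9.9e-05). Every M14A plate library was already below HepaRG for TNRC18. Its place at this end rested on M14A plate library 1, without which its position was above 0.25. FBXL18, an F-box protein, read 17.5, 19.8 and 18.0, then 17.6, 11.8 and 10.2, then 2.28 and 1.55 (-2.75). GAGE12C, one of a cluster of near-identical cancer-testis genes, read 0.907, 0.825 and 3.35 against 280 and 6.55, and its call (4.22, adjusted p = 0.037) rested on printed library 1, without which the difference was 1.61 and the call was lost, as it also was without any 1 HepaRG library. Midway lay HPD, an enzyme of tyrosine breakdown, at 2.70, 2.23 and 3.05, then 47.0, 31.6 and 32.1, then 125 and 104 (4.98), and SERPINA4, kallistatin (4.84). At the printed end lay NQO1, CDKN1A, LCN2 and CXCL1.

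Some genes overshot. SRC, the tyrosine kinase, read 1.63, 1.73 and 1.67 in HepaRG, 35.2, 22.5 and 20.9 in M14A plate and 16.5 and 13.1 in printed M14A (2.55). FBN2, a fibrillin, read 0.125, 0.125 and 0.127, then 11.2, 9.71 and 8.89, then 3.83 and 4.76 (2.23). FBN2 passed the filter only through printed M14A, so the direction of its rise was fixed by it. NUP210, a nuclear pore protein, went the same way (2.13), and S100P, a calcium-binding protein, was lowest in M14A plate (-2.01). HNF4A itself belongs here. In the opposite corner, HPS6, AP5B1, PLIN4, MED18 and MAVS were above HepaRG in most M14A plate libraries and below it in printed M14A, by -1.44 to -1.58. MAVS, the mitochondrial adaptor of RNA sensing, read 14.4, 16.1 and 16.1, then 26.7, 18.9 and 17.8, then 6.27 and 4.10.

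Few genes that M14A plate had moved stood again at the HepaRG level in printed cells. Of 1147 protein-coding genes at which M14A plate differed from HepaRG by at least 2-fold without overlap, 20 (1.74%) had a printed mean within 0.25 of the HepaRG mean, 15 of them higher and 5 lower in M14A plate. LIF, a cytokine of the IL-6 family, read 8.26, 8.52 and 8.10 in HepaRG, 27.5, 19.4 and 16.4 in M14A plate and 9.02 and 7.83 in printed M14A, a difference of 0.02 with a 95% interval of -0.19 to 0.23. H6PD, which makes NADPH in the endoplasmic reticulum, read 13.4, 14.5 and 13.5, then 47.2, 38.6 and 34.7, then 15.7 and 10.8 (-0.07, interval -0.45 to 0.30). CLUH, which binds mRNAs of mitochondrial proteins, read 25.9, 26.1 and 27.7, then 88.5, 54.2 and 46.4, then 43.2 and 20.1. Its printed libraries lay on either side of HepaRG, so its mean difference was 0.15 with an interval of -0.57 to 0.86. TMEM205 was the case of a fall, at 4.33, 3.71 and 3.12, then 0.935, 1.15 and 1.27, then 3.4 and 3.38. These levels hold on the deposited scale, and under equal FPKM totals LIF stood at -0.84, H6PD at -0.97 and TMEM205 at -0.84.

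By chromosome, the protein-coding genes of chromosome 22 were the lowest as a group. Its 256 tested genes had a median of -0.47, with 66.8% below HepaRG against 52.8% of the 11108 genes on all chromosomes, and 53.9% called lower against 38.2%. The medians of the printed libraries were -0.32 and -0.51, and that of M14A plate minus HepaRG was -0.35. Chromosome 18 (-0.28) and chromosome 13 (-0.24) followed, and X was the highest (0.12). With the trends of length and GC content removed, chromosome 22 stood at -0.42 and chromosome 18, the next, at -0.14. PPARA, MCM5, SREBF2, the sterol regulator (-1.08), and LIF lie on chromosome 22, as do RPL3 (1.12), SDF2L1 (1.12), CDC45 (0.40) and XBP1 (0.25), which were called higher. No copy number was measured in these files.

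**Figure D5:**
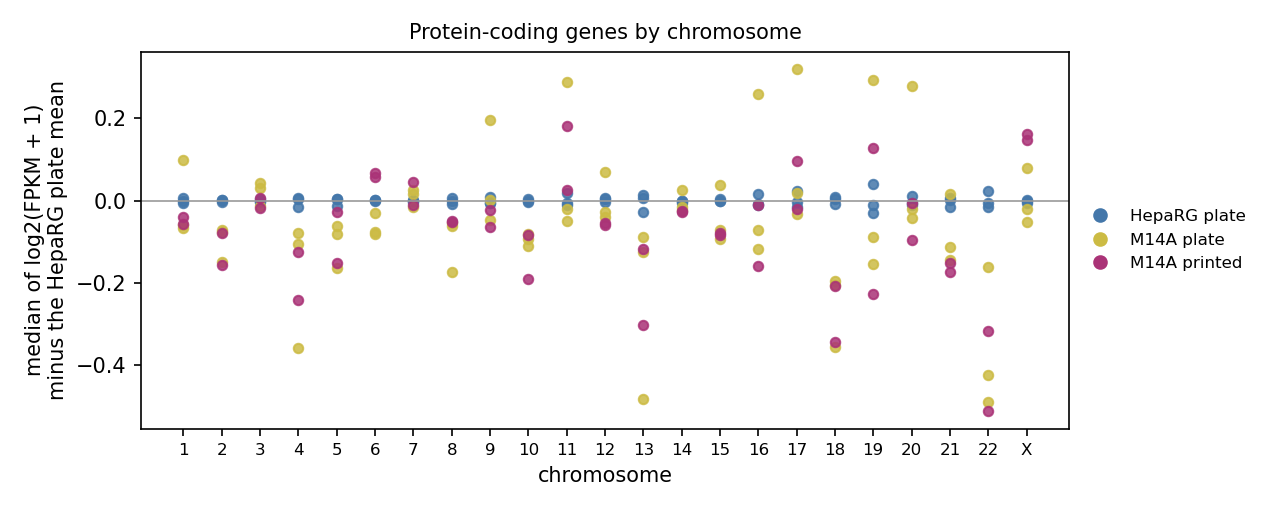
Median over protein-coding genes of log2(FPKM + 1) minus the HepaRG mean, for each library (points) by chromosome (horizontal axis). On chromosome 22 all M14A libraries lie below HepaRG, with the printed ones at -0.32 and -0.51.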

How the data were processed

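Per the labels' protocols, RNA was extracted in TRIzol and 1 µg went into a NEBNext Ultra library. The submitters' processing notes name HISAT2 2.0.5 and featureCounts 1.5.0-p3. Whether counting used strand is not given in the sources used here, so sense and antisense reads may be mixed. The authors deposited FPKM for 58735 genes, whose coordinates all equal those of GENCODE 29 on GRCh38. Reads were recovered as whole multiples of the smallest step (100% of values within 0.01). The FPKM denominators were 1.18 to 1.20 times the reads in HepaRG and 0.818 and 0.853 times in printed M14A, which hides any shift that most genes share. In a 1 kb gene 1 read was worth 0.0435 to 0.0747 FPKM.

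Genes with 1 FPKM or more in at least 2 of the 5 libraries were tested on log2(FPKM + 1) in limma 3.58.1 under R 4.3.3 (lmFit, eBayes with trend, two-sided, Benjamini-Hochberg adjusted p below 0.05), so fold changes of low genes are understated. On simulated reads 85.4% of the 2-fold changes, 93.9% of the 4-fold changes and 20 of 13027 unchanged genes were called. The simulation gave every library the spread of the HepaRG replicates and left nearly all genes unchanged. The real printed pair spread more (chi-square 25.3 per degree of freedom, against 2.69 to 4.02 in HepaRG), and most genes were called. These rates therefore do not carry over to the comparison. The comparison, the lists and the genes were chosen with earlier results of these data known. Named genes are HNF4A, FOXM1, the 10 largest rises and 10 largest falls, up to 3 called members a list, up to 5 a position class and up to 10 at the HepaRG level, of which some are not reported here. Other named members of a list were chosen after their values were seen. Motifs were searched in RefSeq promoters on GRCh38.p14. Alternatives were pseudocounts, filters, scalings, other fits, the replicate block, trend removal and each library left out.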

Additional observations from a re-analysis of the deposited data

How the results depend on the processing

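Counts at 2-fold followed the low genes and the scaling. Genes lower by at least 2-fold numbered 2772 with a pseudocount of 0.1, 2855 with 0.01, 2840 with voom weights on recovered reads and 842 with a filter at 5 FPKM, where 2384 genes were lower in all. Equal FPKM totals gave 1741 higher and 9775 lower, 585 and 5355 at 2-fold. Equal totals without mitochondrial genes gave 2346 and 8640, 772 and 4076 at 2-fold, and equal read totals gave 2915 higher, with 1007 and 3202 at 2-fold. The distance of printed M14A from HepaRG was 1.55 with a pseudocount of 0.1, 0.949 with quantile normalization, 1.18 with equal FPKM totals, 1.14 with the filter at 5 FPKM and 0.975 over protein-coding genes.

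List medians changed sign as follows. Under equal FPKM totals they were -0.21 for immediate early genes, -0.63 for heat shock chaperones, -0.34 for endoplasmic reticulum stress and -0.81 for sterol synthesis. Without mitochondrial genes the last 3 were -0.38, -0.12 and -0.58, and under equal read totals heat shock and sterol genes were at -0.18 and -0.39. Under quantile normalization heat shock, endoplasmic reticulum, sterol and mitochondrially encoded genes were at -0.68, -0.06, -0.43 and -0.49. The urea cycle median was 0.94 with the filter at 5 FPKM, -0.11 to 0.16 with each library left out and 0.24 with length and GC trends removed. Of 126 named genes under 22 alternatives, 104 kept their call and direction in all of them, and 7 changed sign in at least 1. TYMS was at -0.14, GPRIN1 at -0.71, LIF at -0.84, TMEM102 at -0.55, CLUH at -0.78 and KLHL25 at -0.41 under equal FPKM totals. GPRIN1, LIF and TMEM102 were at -0.51, -0.62 and -0.38 without mitochondrial genes, LIF at -0.44 under equal read totals, TRANK1 at 0.29 with trends removed, and CLUH at -0.39 without printed library 1 and 0.68 without printed library 2. The cause was not tested.

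Leaving out each library in turn gave 4250 to 5152 genes higher and 4448 to 5442 lower, and 1793 to 2208 and 1580 to 1713 at 2-fold. Without a printed library the printed group is 1 sample, assumed to vary like HepaRG. With the replicate block, which pairs libraries 1 and 2 of both groups, 4230 were higher and 4505 lower, 2014 and 1645 at 2-fold. Same-numbered libraries deviated with correlations of -0.05 and 0.08, so the numbers are not shown to pair them. Under the block FOXM1 lost its call (-0.37) and 5 heat shock genes were higher. With 2 printed libraries their own spread is poorly known.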

Other observations

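Classes of annotated transcripts other than protein-coding genes differed in direction between printed M14A and HepaRG. Of 498 tested processed pseudogenes, 146 were higher and 59 lower by at least 2-fold (median 0.38), and their median for M14A plate minus HepaRG was -0.07. Of 667 lincRNA genes, 163 were higher and 90 lower (median 0.24). The snRNA, miRNA and misc_RNA classes had negative medians: snRNA genes (58 tested, 5 higher and 25 lower, median -0.97), miRNA genes (101 tested, 10 higher and 34 lower, median -0.77) and misc_RNA genes (58 tested, 6 higher and 25 lower, median -0.92). Mitochondrial tRNA genes (21 tested, 6 higher and 4 lower) had a median of 0.03, and both tested rRNA genes were higher (median 3.65). Both mitochondrial ribosomal RNAs were higher, with a median of 2.98, and took 4.97% and 5.50% of reads in the printed libraries against 1.09 to 1.14% in HepaRG. Genes of the short RNA classes can pass the filter on a few reads, so their falls can lie near the floor of counting and be set in part by the filter. The part of RNA selection or of reads shared with parent genes in these values was not tested.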
